A study of Mus musculus with 30 samples.

Results

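The 10 genes described here encode ubiquitin ligases of skeletal muscle that are tied to muscle wasting: Fbxo32, Fbxo30, Fbxo21, Fbxo31, Fbxo40, Trim63, Trim32, Traf6, Stub1 and Nedd4. They were chosen by name for their known role, by a rule that uses no measured value, though with earlier results of these data known. All 10 were found among the 47643 gene rows of the deposited TPM table (transcript abundance per gene length, with a fixed total per library). RNA of the tibialis anterior, a muscle of the lower leg, of male C57BL/6J mice had been sequenced in 30 libraries, which form 8 groups. Muscles of mice 24 months old (old, n = 3) were compared with muscles of mice 6 months old (young, n = 3). Muscles after dexamethasone, a synthetic glucocorticoid, were compared with their own controls (n = 4 each), and muscles under LLC cancer, usually Lewis lung carcinoma, with theirs (n = 4 each). Muscles with Cyr61 siRNAs were compared with muscles with NT siRNAs (n = 4 each). The labels give no dose, duration, tumour site, route of the siRNA or age beyond the ageing groups, no genetic change in any group, and no statement of what was given to the controls. The series title asks how wasting stimuli differ in the changes that they bring.

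A ubiquitin ligase brings a protein to be marked with ubiquitin, and proteins that carry chains of it are broken down by the proteasome. F-box proteins are the interchangeable adaptors that choose substrates for the SCF ligase complex, while RING, U-box and HECT ligases bind both the substrate and the ubiquitin-loaded E2 enzyme or carry the ubiquitin themselves. In muscle, Fbxo32 (atrogin-1) and Trim63 (MuRF1) are known as genes whose transcripts rise in many forms of wasting in rodents, and FoxO factors and the glucocorticoid receptor are known to induce them.

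The whole reads behind the TPM added up to 27.4 to 55.0 M per library. All 8 markers of skeletal muscle fibres averaged at least 1 TPM in every group, and together they summed to 69629 to 127553 TPM per library. Mitochondrially encoded genes took 37.9 ± 3.17% of the TPM in dexamethasone muscles and 48.7 ± 2.09% in their controls (SD, n = 4 each), and 60.4% in the library LLC 3, the highest of all 30. Cyr61 itself had 32.9, 52.8, 45.8 and 25.5 TPM with Cyr61 siRNAs and 57.0, 64.6, 67.8 and 36.8 TPM with NT siRNAs, so the groups overlapped, and the log2 change of -0.53 (SE 0.25) missed the threshold (adjusted p = 0.999, limma).

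All 10 genes were expressed in every library, with levels that differed widely between genes. In the 11 control libraries outside the siRNA experiment, the length-normalised level was highest for Trim63, a RING ligase of the sarcomere that acts on myosin heavy chain and other thick-filament proteins, at a median of 125 TPM (92.7 to 144 TPM). Fbxo40, a muscle-restricted F-box protein that targets the insulin receptor substrate IRS1, followed at 116 TPM (99.0 to 135 TPM). Fbxo32, the F-box adaptor reported to act on MyoD and the initiation factor eIF3f, had a median of 72.9 TPM (52.2 to 109 TPM). Stub1, the U-box ligase CHIP that works with heat-shock chaperones, had a median of 71.9 TPM (65.6 to 93.6 TPM), and Nedd4, a HECT ligase with WW domains, 64.8 TPM (48.4 to 82.3 TPM). These 5 genes overlapped their neighbours in the order. Fbxo31, an F-box protein known for turning over cyclin D1 after DNA damage, lay apart below them at 35.7 TPM (23.8 to 45.8 TPM). The other 4 genes were far lower. Trim32, a RING ligase that acts on desmin and thin filaments, had a median of 5.33 TPM (4.77 to 5.93 TPM), and Fbxo30, an F-box protein (MUSA1) needed for atrophy after denervation in mice, 4.90 TPM (3.41 to 7.52 TPM). Traf6, a RING ligase that builds signalling ubiquitin chains upstream of NF-kB, had 4.57 TPM (3.73 to 5.23 TPM), and Fbxo21, an F-box protein (SMART) tied to FoxO-dependent atrophy in mice, 3.27 TPM (2.61 to 4.50 TPM). Neighbours among these 4 overlapped.

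Recovered reads reached at least 202 per library for every member, the lowest being Trim32. Trim63 lies at chr4:134315120-134329629 (plus strand, mm10), Fbxo31 at chr8:121549440-121578806 (minus strand), Nedd4 at chr9:72662346-72749852 (plus strand) and Fbxo30 at chr10:11281330-11298052 (plus strand). Fbxo21 lies at chr5:117976730-118010201 (plus strand), Fbxo40 at chr16:36963460-36990467 (minus strand) and Traf6 at chr2:101678429-101701669 (plus strand). Fbxo32 (chr15:58175879-58214932, minus strand, mm10) shares 186 exon bases with the antisense gene Gm15943, which had 0 to 2.24 TPM. Stub1 (chr17:25830505-25833404, minus strand) shares 1084 exon bases with Jmjd8 on the opposite strand, which had 3.94 to 10.9 TPM. Whether counting used the strand is not known from the sources used here, so reads of these pairs cannot be told apart. Trim32 (chr4:65604986-65616238, plus strand) lies within an intron of Astn2 and shares no exon base with it.

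**Figure D1:**
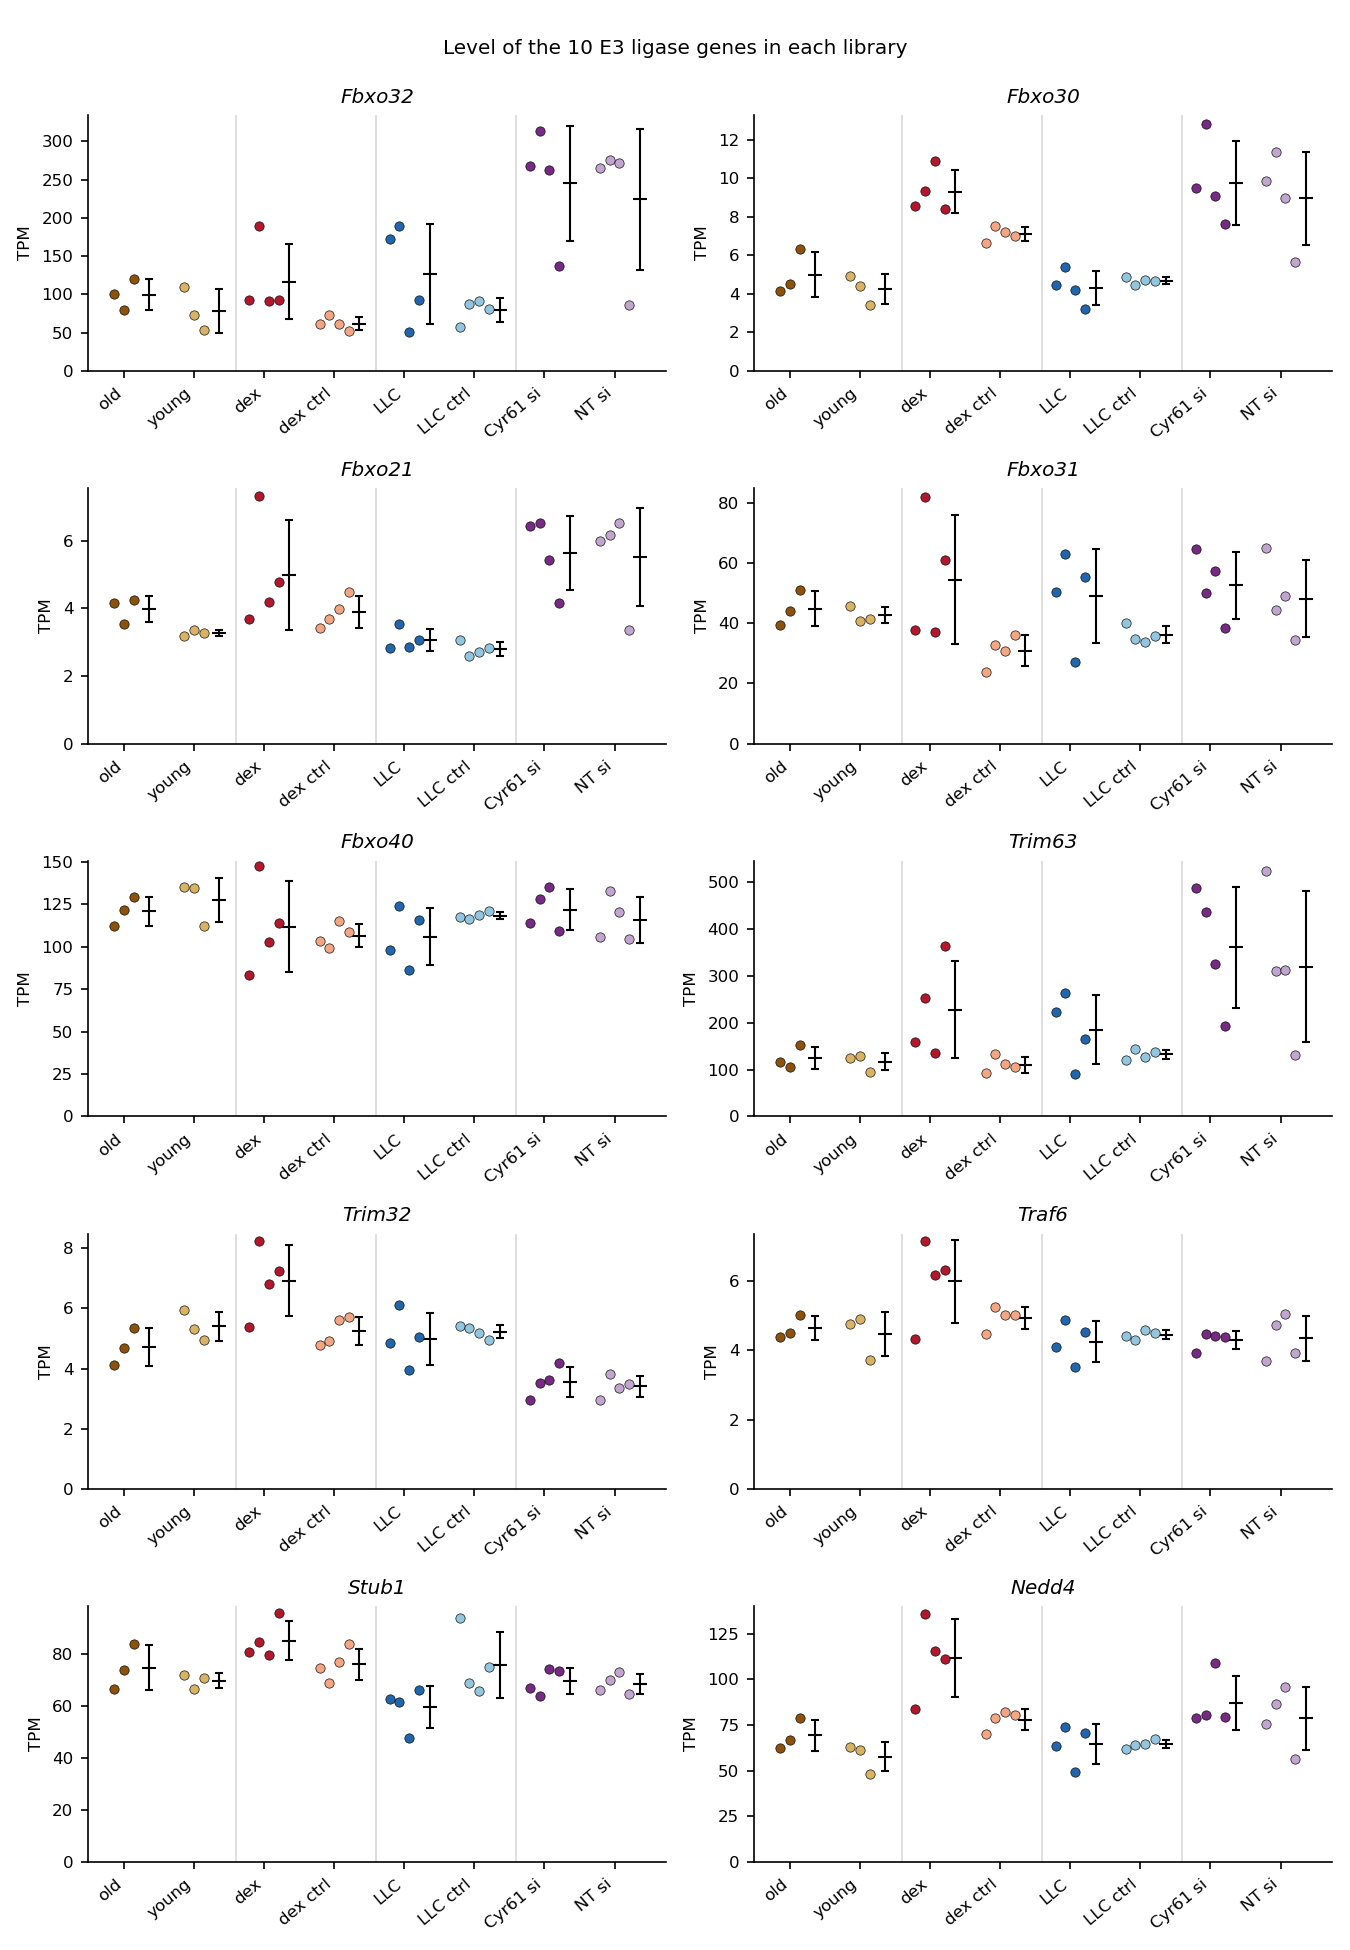
Level of each of the 10 genes (y axis, TPM, from 0) in each library (points) of the 8 groups along the x axis: old, young, dexamethasone (dex), dexamethasone control (dex ctrl), LLC, LLC control (LLC ctrl), Cyr61 siRNA (Cyr61 si) and NT siRNA (NT si), with the group mean and SD as a bar to the right of the points. Fbxo32 and Trim63 stand highest in the siRNA experiment, where NT siRNA 4 lies far below its group, and LLC 3 lies below the other LLC libraries.

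The 250 bases before the start site were read from RefSeq promoter windows (GRCm38.p6) for 9 of the 10 genes, with 11 windows in all. Of the 9, Trim63 and Trim32 held a FoxO-type hexamer. Fbxo31 is shown beside them as the member most like Trim63 in level across libraries, with a window that held no motif searched. Capitals mark matches to the glucocorticoid hexamer or to a FoxO motif, and each sequence is written 5′ to 3′ on the strand of the gene.
Trim63: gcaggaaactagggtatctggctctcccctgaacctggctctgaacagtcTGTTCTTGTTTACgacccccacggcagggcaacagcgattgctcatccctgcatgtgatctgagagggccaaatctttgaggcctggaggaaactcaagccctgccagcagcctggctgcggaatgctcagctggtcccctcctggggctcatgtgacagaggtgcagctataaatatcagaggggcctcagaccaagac
Trim32: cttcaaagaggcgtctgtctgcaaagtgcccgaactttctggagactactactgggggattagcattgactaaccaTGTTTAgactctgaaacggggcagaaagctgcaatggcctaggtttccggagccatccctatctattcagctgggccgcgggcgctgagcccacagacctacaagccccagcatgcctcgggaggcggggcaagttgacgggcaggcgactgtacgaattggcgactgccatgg
Fbxo31: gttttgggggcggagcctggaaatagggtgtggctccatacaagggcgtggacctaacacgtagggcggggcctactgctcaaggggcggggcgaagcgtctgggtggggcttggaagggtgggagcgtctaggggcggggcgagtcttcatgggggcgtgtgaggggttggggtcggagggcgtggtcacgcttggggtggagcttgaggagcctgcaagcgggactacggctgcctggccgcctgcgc
The windows lie at chr4:134314870-134315119 (plus strand) for Trim63, chr4:65604736-65604985 (plus strand) for Trim32 and chr8:121578807-121579056 (minus strand) for Fbxo31. In the Trim63 window, the glucocorticoid hexamer (AGAACA, on the minus strand at -200 to -195 from the start) is followed without a gap by the FoxO core (GTAAACA, on the minus strand at -194 to -188), which overlaps the FoxO-type hexamer (TGTTTA, -194 to -189). Neighbouring glucocorticoid and FoxO elements are known in the promoter of the mouse gene. The FoxO core was found in 3.17% of 32851 promoters of the same length, the FoxO-type hexamer in 12% and the glucocorticoid hexamer in 16.1%, both strands searched. The glucocorticoid hexamer was also in 1 of 2 windows of Fbxo40 and 1 of 2 of Nedd4. No member window held an exact match to the full glucocorticoid response element (2 hexamers facing each other, 0.00913% of promoters). The NF-kB motif (0.14%) was in none either. In the Trim63 window, the marked glucocorticoid hexamer and the bases before it differ from the full element at only 1 base, in the unmarked hexamer. How often such near matches occur among promoters was not counted. The E-box CANNTG (66.2% of promoters) was in windows of 6 members, the CEBP motif TTGCNNAA (9.56%) in windows of Fbxo40 and Nedd4, and the SMAD motif CAGACA (17.1%) in those of Traf6 and Trim32. The windows of Fbxo30, Fbxo21 and Fbxo31 held none of these letters, and nothing about binding follows from a match or its absence. No window was printed for Fbxo32.

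After dexamethasone, 5 of the 10 genes were higher at an adjusted p under 0.05 (limma on log2(TPM + 1), Benjamini-Hochberg over 11944 genes) and none was lower, on a background of 35.9% of all genes higher and 1.51% lower. They were Fbxo32, Trim63, Fbxo31, Nedd4 and Fbxo30. After median-of-ratios scaling, which sets the change of the typical gene to about 0, none was called. The median gene was 0.33 higher on the log2 scale, so a call among the members is not rare against the other genes. Fbxo32, Trim63 and Fbxo31 rose by 0.41 to 0.61 more than the median gene on that scale, Nedd4 by 0.16 and Fbxo30 by 0.02.

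Fbxo32 had 92.8, 189.6, 91.2 and 93.3 TPM in dexamethasone muscles and 60.8, 72.9, 61.3 and 52.2 TPM in their controls. In deposited TPM every dexamethasone library lay above every control, and dexamethasone 2 stood far above the other 3. The log2 change was 0.84 (SE 0.22, adjusted p = 0.0188, limma). Trim63 had 159.5, 253, 136 and 364 TPM in dexamethasone muscles and 92.7, 133, 112 and 105 TPM in controls. The groups again did not overlap, although dexamethasone 3 stood just above the highest control, and the log2 change was 0.94 (SE 0.27, adjusted p = 0.0240, limma). The library with the most Trim63, dexamethasone 4, was not the one with the most Fbxo32.

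Fbxo31 had 37.9, 81.9, 36.9 and 61.1 TPM in dexamethasone muscles and 23.8, 32.8, 30.7 and 36.1 TPM in controls. Its groups were separated by a narrow gap, and its log2 change was 0.74 (SE 0.24, adjusted p = 0.0382, limma). Nedd4 had 83.8, 136, 116 and 111 TPM in dexamethasone muscles and 69.9, 79.0, 82.3 and 80.7 TPM in controls, a log2 change of 0.49 (SE 0.14, adjusted p = 0.0228, limma). Here dexamethasone 1 lay only just above the highest control and the other 3 well above. Fbxo30 had 8.58, 9.37, 10.9 and 8.41 TPM in dexamethasone muscles and 6.64, 7.52, 7.21 and 7.0 TPM in controls, also without overlap (log2 change 0.34, SE 0.11, adjusted p = 0.0362, limma). Groups that did not overlap, with dexamethasone higher, were found for 34.3% of all genes tested. After median-of-ratios scaling the groups overlapped for Fbxo32, Trim63, Fbxo31, Nedd4 and Fbxo30 alike. Scaled Fbxo32 was 78.9 TPM in dexamethasone 4 and 84.9 TPM in dexamethasone control 2. Scaled Trim63 was 117 TPM in dexamethasone 3 and 155 TPM in dexamethasone control 2.

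The other 5 genes overlapped between the groups and missed the threshold. Trim32 averaged 6.91 ± 1.18 TPM after dexamethasone and 5.25 ± 0.47 TPM in controls (SD, n = 4 each; log2 change 0.33, adjusted p = 0.0700, limma), with 3 of 4 dexamethasone libraries above all controls. Traf6 averaged 5.98 ± 1.19 TPM after dexamethasone and 4.93 ± 0.32 TPM in controls (log2 change 0.22, adjusted p = 0.205), and Fbxo21 4.99 ± 1.62 TPM and 3.90 ± 0.46 TPM (0.26, adjusted p = 0.225). Their highest value was again in dexamethasone 2, the library that held the highest value of its group for 7 of the 10 genes. Stub1 averaged 85.0 ± 7.46 TPM after dexamethasone and 75.8 ± 6.12 TPM in controls (0.16, adjusted p = 0.185). Fbxo40 was the gene nearest to no change, at 112 ± 26.9 TPM after dexamethasone and 107 ± 7.0 TPM in controls (0.04, 95% interval -0.30 to 0.38, adjusted p = 0.824), and dexamethasone 1 and 2 held both its lowest and its highest value.

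**Figure D2:**
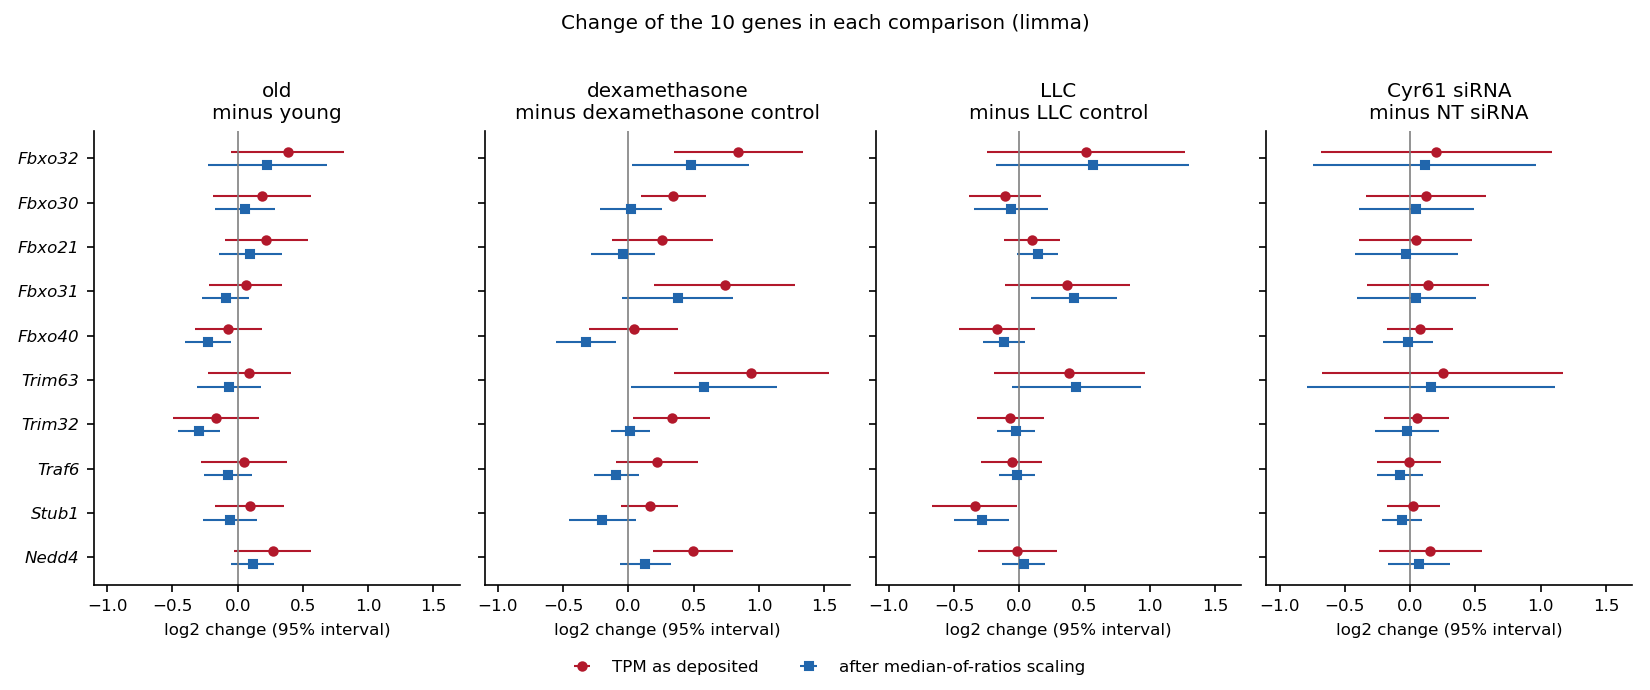
Log2 change of each gene (x axis, with its 95% interval from limma) in the 4 comparisons (panels), from TPM as deposited (red circles) and after median-of-ratios scaling (blue squares). After dexamethasone the scaled changes lie about 0.33 to the left of the others, and in the LLC and siRNA panels the intervals of Fbxo32 and Trim63 are the widest.

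The calls after dexamethasone rested on how the libraries were scaled. Median-of-ratios scaling divides each library by the median of its gene-by-gene ratios to a common average. With it, 0 of the 10 genes were called by limma (background 4.44% of genes higher and 4.71% lower), and 3 had an unadjusted p under 0.05 (background 23.7%). Without that scaling, voom on recovered reads called 1, Fbxo32 (adjusted p = 0.0431, background 13.3% of genes higher). The scaled log2 change was 0.58 for Trim63 (adjusted p = 0.198), 0.48 for Fbxo32 (adjusted p = 0.183) and 0.38 for Fbxo31 (adjusted p = 0.266). That of Fbxo40 was -0.32 (adjusted p = 0.0830), against 0.04 before scaling, and the values of Stub1, Traf6 and Fbxo21 also changed sign, to -0.20, -0.09 and -0.04. Leaving out 1 library changed the calls as well, together with the share of all genes called higher. Without dexamethasone control 1, 0 members were called (background 15.5%), and without dexamethasone control 4 only Nedd4 (19.9%). Fbxo32 and Trim63 alone were called without dexamethasone 4 (19%) or without dexamethasone control 2 (14.7%). The count was 3 without dexamethasone 2 (28.1%), dexamethasone 3 (20.9%) or dexamethasone control 3 (24.2%), and 7 without dexamethasone 1 (70%).

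In deposited TPM, markers of other cells moved with the same contrast. All 8 macrophage markers averaged at least 1 TPM in both groups, and they summed to 1076 to 2614 TPM in dexamethasone muscles against 302 to 522 TPM in controls. The sums also stood apart for smooth muscle and pericytes (301 to 405 TPM after dexamethasone, 212 to 278 TPM in controls), adipocytes (11.6 to 16.6 TPM and 2.52 to 7.21 TPM), tendon cells (116 to 156 TPM and 66.2 to 114 TPM) and satellite cells (3.76 to 5.03 TPM and 2.71 to 3.62 TPM). Of these markers, Calcr (satellite cells) and Lep (adipocytes) averaged under 1 TPM in both groups, and Plin1 (adipocytes) in controls. The sums overlapped for muscle fibres, endothelial cells, fibroadipogenic progenitors, Schwann cells, neutrophils and red cells. Single genes stood apart in this direction for 34.3% of all genes tested. Median-of-ratios scaling divides the dexamethasone libraries by 0.926 to 1.32 and their controls by 0.827 to 0.927. Whether the marker sums stand apart after it was not examined, so these separations are shown for deposited TPM only. What part these cells have in the changes of the ligase genes was not tested. In whole muscle, fewer cells of a type and less RNA per cell cannot be told apart.

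In 6 lists of other genes of the ubiquitin pathway, its inducers and substrates, no gene was called lower after dexamethasone, and the counts called higher stand beside the 35.9% of all genes called higher. Of 24 other ligases of muscle, 6 were higher, among them Klhl40, a kelch adaptor of the thin filament (108 ± 12.3 TPM after dexamethasone and 75.1 ± 2.75 TPM in controls, SD, n = 4 each; log2 change 0.51, adjusted p = 0.00575, limma). Trim54, a relative of Trim63, was higher too (log2 change 0.48, adjusted p = 0.0207). Of the 9 genes of the SCF core that F-box proteins plug into, 7 were higher, with Cul1, its scaffold, at 0.54 (adjusted p = 0.00646), Cand1, which exchanges the adaptors, at 0.45 and Skp1a, which holds the F-box, at 0.44. Ubiquitin and its E1 and E2 enzymes had 13 of 21 higher, with Rps27a, which encodes a ubiquitin fusion, at 0.60, the E2 Ube2j1 at 0.59 and the E1 Uba1 at 0.47. Of 14 deubiquitinating enzymes 5 were higher, with Uchl1 at 1.07 (adjusted p = 0.00719), Cyld at 0.58 and Usp28 at 0.58. List medians lay within 0.05 of the median gene for these 4 lists, and none of their genes was called after median-of-ratios scaling.

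Among 16 known inducers or companions of the ligase genes, 6 were higher after dexamethasone, beside 35.9% of all genes. Myog (myogenin), a myogenic factor known to act on Fbxo32 and Trim63 in denervated mouse muscle, had 72.0 ± 16.7 TPM after dexamethasone and 22.8 ± 7.44 TPM in controls (log2 change 1.65, adjusted p = 0.00161, limma). Fkbp5, a direct target of the glucocorticoid receptor, had 18.4 ± 7.77 TPM after dexamethasone and 6.07 ± 0.516 TPM in controls (1.37, adjusted p = 0.00457), and these were the only 2 of the 98 listed genes called higher after scaling. Cebpd, a transcription factor, changed by 0.81 (adjusted p = 0.0465). Of 14 reported substrates 4 were higher, including Myod1, the reported target of Fbxo32 (log2 change 0.84), Des, the target of Trim32 (0.75), and Eif3f (0.59).

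In the LLC comparison none of the 10 genes was called (limma, 10830 genes tested, background 1.18% of genes), and 1 had an unadjusted p under 0.05 (background 13.2%). Neither scaled values (background 3.24%) nor voom gave a call, with 2 genes at an unadjusted p under 0.05 in each (background 20.4% scaled and 17.2% by voom). In deposited TPM, however, Fbxo32, Trim63 and Fbxo31 were above all 4 controls in 3 of 4 LLC libraries. They were below all 4 in the remaining one, LLC 3. Fbxo32 had 172, 189, 51.5 and 92.4 TPM in LLC muscles and 57.5, 87.9, 91.8 and 80.7 TPM in their controls (log2 change 0.51, 95% interval -0.25 to 1.27, adjusted p = 0.596, limma). Trim63 had 223, 263, 91.1 and 166 TPM in LLC muscles and 121, 144, 127 and 138 TPM in controls (0.38, -0.20 to 0.97, adjusted p = 0.606). Fbxo31 had 50.3, 63.0, 27.0 and 55.5 TPM in LLC muscles and 40.2, 34.7, 33.8 and 35.7 TPM in controls (0.37, -0.11 to 0.85, adjusted p = 0.530). The controls were close together, and the LLC group spread over both sides of them. After median-of-ratios scaling this pattern held for Fbxo31 only. Scaled Fbxo32 was 63.7 TPM in LLC 3 and 86.3 TPM in LLC 4, within the range of the controls (53.2 to 94.7 TPM). Scaled Trim63 was 113 TPM in LLC 3, just above the lowest control (112 TPM). How many of all genes show the pattern was not counted.

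In deposited TPM, LLC 3 held the lowest LLC value for 8 of the 10 genes, not only for these 3. After median-of-ratios scaling it held the lowest for Fbxo32, Fbxo31, Trim63 and Nedd4, and the highest for Fbxo30 and Fbxo21. Without it, Fbxo31 was higher by 0.62 on the log2 scale (adjusted p = 0.0189, limma) and Trim63 by 0.69 (adjusted p = 0.0430), at a background of 1.97% of genes higher, while Fbxo32, at 0.88, had an adjusted p of 0.0916. With median-of-ratios scaling and without LLC 3, Fbxo31 was called too (0.59, adjusted p = 0.00748) and Trim63 was not, at a background of 2.28%. LLC 3 was singled out by its values, so these calls are no separate test. Fbxo31 was called in 1 of 8 fits with 1 library left out, on either scale. Marker sums here are of deposited TPM. In LLC 3 the fibre markers summed to 69629 TPM, against 92917 to 103702 TPM in the other LLC libraries and 106236 to 114586 TPM in controls. Red cell markers summed to 717 TPM in LLC 3 and 2157 to 7806 TPM in the other LLC libraries, against 622 to 792 TPM in controls, and neutrophil markers to 35.0 TPM and 68.6 to 98.6 TPM, against 1.22 to 91.3 TPM in controls. All 5 red cell markers averaged at least 1 TPM in both groups, as did all 4 neutrophil markers in LLC muscles and 3 of 4 (not Csf3r) in controls. What part these differences have in the ligase values was not tested.

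Stub1 had the most negative LLC change of the 10 genes, and it was not called. It had 62.6, 61.3, 47.7 and 65.9 TPM in LLC muscles and 93.6, 68.8, 65.6 and 74.8 TPM in controls, and only LLC 4 reached into the range of the controls. The log2 change of -0.34 (95% interval -0.67 to -0.02) had an unadjusted p of 0.0413 and missed the threshold (adjusted p = 0.351, limma), as it did after scaling (-0.29, adjusted p = 0.126). The remaining 6 genes changed by -0.17 (Fbxo40) to 0.10 (Fbxo21), each with an interval across 0. Fbxo40 was nearly constant in the controls (116 to 121 TPM) and ranged over 86.2 to 124 TPM in LLC muscles. Nedd4 likewise ranged over 49.4 to 74.2 TPM in LLC muscles and 61.9 to 67.5 TPM in controls, around nearly the same mean (log2 change -0.02). Fbxo30 covered 3.24 to 5.38 TPM in LLC muscles and 4.44 to 4.90 TPM in controls, Fbxo21 2.84 to 3.54 TPM and 2.61 to 3.07 TPM, Trim32 3.96 to 6.10 TPM and 4.96 to 5.42 TPM, and Traf6 3.51 to 4.86 TPM and 4.28 to 4.57 TPM.

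Among the pathway lists, Foxo1, a FoxO factor and the only one of 16 inducers called under LLC, had 6.60 ± 2.23 TPM in LLC muscles and 2.59 ± 0.311 TPM in controls (log2 change 1.03, adjusted p = 0.0362, limma). After median-of-ratios scaling Foxo3 (0.81, adjusted p = 0.020), Klf15, a glucocorticoid-induced factor (0.87, adjusted p = 0.0182), and Fkbp5 (1.63, adjusted p = 0.0422) were called as well. These 3 and Siah1a below fell outside the naming rule and were chosen after their values were seen. Among all genes tested under LLC, 0.295% were called higher as deposited and 1.67% after scaling. Of 14 reported substrates 2 were lower, beside 0.886% of all genes. Irs1, the target of Fbxo40, had 4.89 ± 0.902 TPM in LLC muscles and 12.1 ± 4.07 TPM in controls (log2 change -1.11, adjusted p = 0.0250), and Myl1, a myosin light chain, changed by -0.65 (adjusted p = 0.0201). No gene of the SCF core, of ubiquitin with its E1 and E2 enzymes or of the deubiquitinating enzymes was called by limma. Of the other ligases, only Siah1a was called, and only after scaling (0.39, adjusted p = 0.0470).

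In old against young muscle none of the 10 genes was called (limma, 10511 genes tested, background 0.171%), and none had an unadjusted p under 0.05 (background 11.2%). voom called 0 of the 10, and the scaled fit called 0 (background 0%) with 2 at an unadjusted p under 0.05 (Fbxo40 and Trim32, with scaled changes below 0, background 13.2%). Fbxo32 had 99.9, 79.2 and 120.3 TPM in old muscles and 109, 73.6 and 52.9 TPM in young muscles. The ranges overlapped because young 1 exceeded 2 of 3 old libraries, and the log2 change was 0.38 (95% interval -0.05 to 0.82, adjusted p = 0.491, limma). Without young 1 it was 0.65 and was called (adjusted p = 0.0143, limma, background 2.6% of genes higher). Young 1 was singled out by its own Fbxo32 value, so that call is no separate test of the change. It was the only call of Fbxo32 in 6 fits with 1 library left out. With scaling in addition 0 of 6 called it (log2 change 0.05 to 0.43, lowest adjusted p 0.366). Trim63 had 115, 106 and 152 TPM in old muscles and 125, 129 and 96.0 TPM in young muscles, with only old 3 above the young range (log2 change 0.09, adjusted p = 0.805).

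Fbxo21 was the one gene whose ageing groups did not overlap in deposited TPM, with 4.16, 3.55 and 4.26 TPM in old muscles and 3.19, 3.38 and 3.27 TPM in young muscles. The log2 change was 0.22 (95% interval -0.10 to 0.54), and groups separated in that direction were found for 15.5% of all genes tested. The nearest libraries, old 2 and young 2, had 353 and 347 reads of Fbxo21. After median-of-ratios scaling its groups overlapped, with 3.44 TPM in old 2 and 3.84 TPM in young 3 (log2 change 0.10). Nedd4 had 62.4, 67.0 and 79.0 TPM in old muscles and 63.0, 61.5 and 48.4 TPM in young muscles (log2 change 0.27, adjusted p = 0.479), with old 1 just below young 1. Trim32 had 4.13, 4.67 and 5.36 TPM in old muscles and 5.93, 5.33 and 4.96 TPM in young muscles, the change with the lowest value of the family (-0.17, adjusted p = 0.667; -0.30 after scaling, unadjusted p = 0.00272, adjusted p = 0.295). In deposited TPM the library old 3 held the highest old value for all 10 genes, and young 3 the lowest young value for 7. After median-of-ratios scaling old 3 was highest for Fbxo30, Fbxo31, Trim63 and Nedd4 only, and lowest for Fbxo40 and Traf6. Scaled values of young 3 were lowest for Fbxo32, Fbxo30, Trim63, Traf6 and Nedd4. Fbxo30, Fbxo31, Fbxo40, Traf6 and Stub1 overlapped between the groups, with log2 changes of -0.07 (Fbxo40) to 0.18 (Fbxo30), beside 0.14 for the median gene. None of the 98 genes of the 6 pathway lists was called in the ageing comparison by limma with or without scaling, and 7 had an unadjusted p under 0.05.

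The siRNA comparison showed no difference in any of the 10 genes beyond the spread between libraries. None was called (limma, 11006 genes tested, background 0%), none had an unadjusted p under 0.05 (background 0.99%), and the scaled and voom fits also gave 0 calls. Fbxo32 had 267, 313, 262 and 137 TPM with Cyr61 siRNAs and 265, 275, 271 and 86.5 TPM with NT siRNAs. In both groups replicate 4 stood far below the others. Its log2 change was 0.20, with a wide 95% interval of -0.68 to 1.09. Trim63 had 487, 436, 326 and 194 TPM with Cyr61 siRNAs and 524, 310.1, 313 and 132 TPM with NT siRNAs (log2 change 0.25, interval -0.67 to 1.17). The genes measured most precisely were Stub1 (0.03, -0.18 to 0.23), Traf6 (-0.01, -0.25 to 0.24), Trim32 (0.05, -0.20 to 0.30) and Fbxo40 (0.07, -0.18 to 0.33). Fbxo30 changed by 0.13 (-0.33 to 0.58), Fbxo31 by 0.14 (-0.33 to 0.60), Fbxo21 by 0.04 (-0.39 to 0.48) and Nedd4 by 0.16 (-0.24 to 0.55). Of the 97 pathway genes tested with these siRNAs, 0 were called by limma with or without scaling, and 0 had an unadjusted p under 0.05.

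The level of several ligases in the siRNA libraries lay outside the range of the control libraries of the other experiments. Fbxo32 lay above the highest of the 11 other control libraries in 7 of the 8 siRNA libraries, and its median with NT siRNAs was 268 TPM, against 72.9 TPM in those controls, a ratio of 3.68. At least 7 of the 8 siRNA libraries were above all 11 controls for 4.59% of the 11082 genes with at least 1 TPM in 8 or more of these libraries. Trim63 was above them in 7 of 8 (median 312 TPM with NT siRNAs and 125 TPM in the other controls), Fbxo30 in 7 of 8 (9.41 and 4.90 TPM), Fbxo21 in 6 of 8 (6.09 and 3.27 TPM) and Fbxo31 in 5 of 8 (46.7 and 35.7 TPM). The share of 4.59% is for at least 7 of 8 libraries, and no share was counted for 5 or 6 of 8. For Fbxo32, Trim63 and Fbxo30 the library within the range of the other controls was NT siRNA 4.

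Trim32 went the opposite way. It had 2.97, 3.51, 3.62 and 4.19 TPM with Cyr61 siRNAs and 2.96, 3.83, 3.34 and 3.5 TPM with NT siRNAs, and all 8 values lay below the lowest of the 11 other controls (4.77 to 5.93 TPM), as was so for 1.87% of the 11082 genes. Its median with NT siRNAs was 0.642 of theirs. Fbxo40, Stub1 and Traf6 had ratios of 0.973, 0.944 and 0.946, and Nedd4 1.25. These are levels of separate experiments in deposited TPM, without scaling between them, given as a description with no test. The siRNA procedure and the experiment cannot be told apart.

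Whether a response differed between stimuli was tested by interaction terms in 1 fit of the 22 libraries without siRNA. Between LLC and dexamethasone, Stub1 was called: its response to LLC minus its response to dexamethasone was -0.50 (SE 0.17, adjusted p = 0.0335, limma), in a contrast in which 26.5% of 12392 genes were called lower and the median gene was -0.37. After median-of-ratios scaling it was -0.08 and not called (adjusted p = 0.801, background 6.56%). It was also not called without dexamethasone 4, dexamethasone control 1 or 2, LLC 3 or LLC control 1 or 4. Nedd4 (-0.51, adjusted p = 0.0533) and Fbxo30 (-0.45, adjusted p = 0.0654) just missed the threshold. For Fbxo32 the difference was -0.33 (95% interval -1.25 to 0.59) and for Trim63 -0.56 (-1.35 to 0.24); both intervals span 0 and are wide.

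Between LLC and old age (background 0.0484% of genes) and between dexamethasone and old age (2.06%), none of the 10 was called by limma, with 1 gene at an unadjusted p under 0.05 in each, Stub1 for LLC (background 11.8%) and Trim32 for dexamethasone (14.8%). After scaling, the response of Trim32 to dexamethasone exceeded its response to old age by 0.31 (adjusted p = 0.0498, background 0.807% of genes higher), a call made in 1 of 14 fits with 1 library left out (adjusted p 0.045 to 0.117), while LLC against old age still gave 0 calls (background 0.226%). The same difference for Trim32 was 0.50 before scaling (adjusted p = 0.202).

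The ratio of Fbxo32 to Trim63 within a library does not depend on how libraries are scaled, and no comparison showed a difference in it. It averaged 0.565 ± 0.217 after dexamethasone and 0.563 ± 0.0657 in controls (exact permutation test, two-sided, p = 0.971). It averaged 0.654 ± 0.109 in LLC muscles and 0.599 ± 0.102 in controls (exact p = 0.571), and 0.801 ± 0.0606 in old muscles and 0.665 ± 0.179 in young muscles (exact p = 0.4). With Cyr61 siRNAs it averaged 0.694 ± 0.106 and with NT siRNAs 0.729 ± 0.182 (exact p = 0.829). All 4 had an adjusted p of 0.971, and the smallest p the test allows is 0.0286 for 4 against 4 and 0.1 for 3 against 3. A single library stood out, dexamethasone 4, with a ratio of 0.256 beside 0.476 to 0.888 in the other 29.

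**Figure D3:**
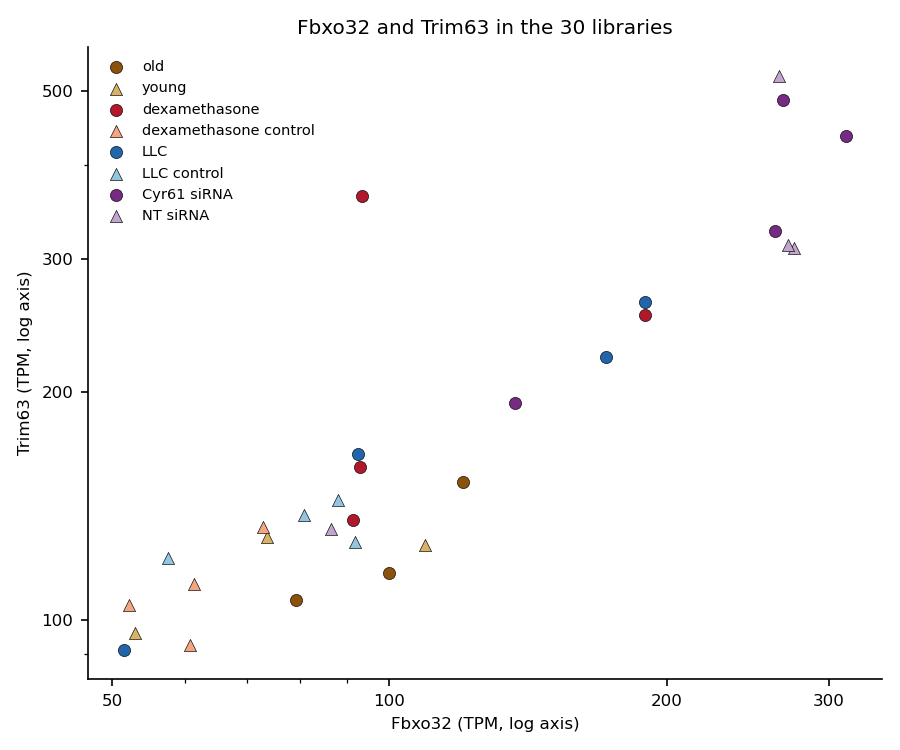
Fbxo32 (x axis, TPM, log scale) against Trim63 (y axis, TPM, log scale) in the 30 libraries, with circles for old, dexamethasone, LLC and Cyr61 siRNA muscles and triangles for the corresponding controls. Most libraries lie along 1 band, and dexamethasone 4 lies above it with 93.3 TPM of Fbxo32 and 364 TPM of Trim63.

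Within groups, the 2 genes moved together from library to library. After group means were removed, Fbxo32 and Trim63 had a Pearson r of 0.789 over the 30 libraries (permutation within groups, adjusted p = 0.00729 over 9 relations, unadjusted p = 0.00083) and a Spearman rho of 0.770 (unadjusted p = 0.00011). After median-of-ratios scaling r was 0.730 (unadjusted p = 0.00111, adjusted p = 0.00999) and rho 0.703 (unadjusted p = 0.00092), and without the 2 libraries farthest from the median of Fbxo32, LLC 3 and NT siRNA 4, r was 0.612. By experiment the scaled r was 0.959 for LLC, 0.889 for siRNA and 0.592 for ageing, but 0.0941 for dexamethasone. These values by experiment were not tested. In deposited TPM r was 0.331 for dexamethasone, where the library dexamethasone 4 stood apart with 364 TPM of Trim63 and 93.3 TPM of Fbxo32.

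On the deposited scale Fbxo32 also correlated with Nedd4 (r = 0.691), Fbxo30 (0.676), Fbxo31 (0.675), Fbxo21 (0.673), Fbxo40 (0.589) and Traf6 (0.50), with permutation p-values adjusted over the 9 relations of 0.00729 to 0.0422, and not with Trim32 (0.297, adjusted p = 0.250) or Stub1 (0.114, adjusted p = 0.638). Libraries share their scaling on that scale. After median-of-ratios scaling only Trim63, Nedd4 (r = 0.605, rho 0.495, adjusted p = 0.0171 and 0.0510), Fbxo31 (r = 0.541, rho 0.366, adjusted p = 0.0485 and 0.152) and Stub1 had an adjusted permutation p under 0.05 for r. The rank correlation missed the threshold for Nedd4 and Fbxo31. Stub1 ran against Fbxo32, with r = -0.521 (unadjusted permutation p = 0.00425, adjusted p = 0.0171) and rho = -0.568 (adjusted p = 0.0166). Its sign was the same in all 4 experiments, with r of -0.901 for siRNA, -0.661 for ageing, -0.587 for dexamethasone and -0.361 for LLC, and r was -0.562 without the 2 farthest libraries.

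**Figure D4:**
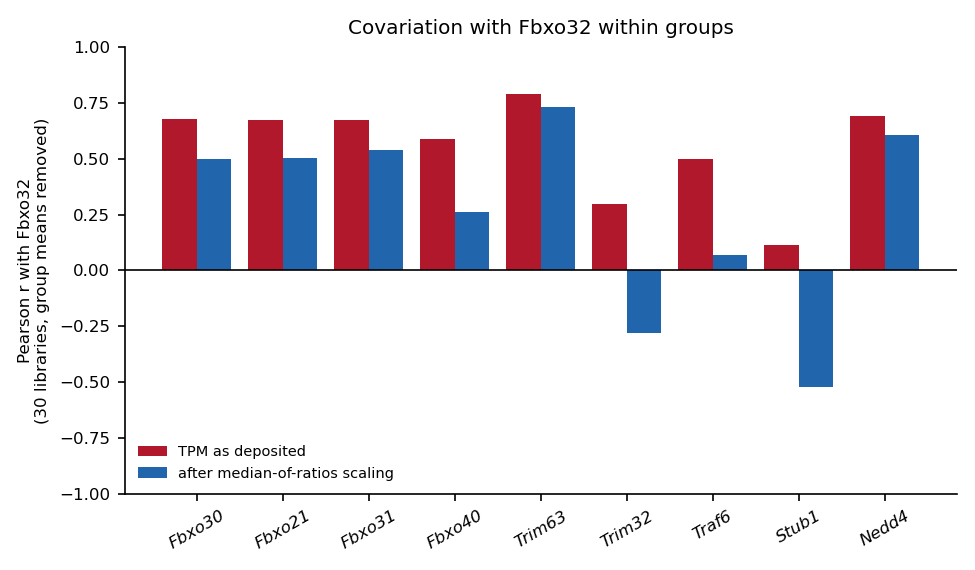
Pearson r of each gene with Fbxo32 over the 30 libraries after removal of group means (y axis), from TPM as deposited (red) and after median-of-ratios scaling (blue). Trim63 has the highest r on both scales (0.789 and 0.730), and Stub1 changes from 0.114 to -0.521.

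Over all 30 libraries, on scaled log2 values less the mean of the control group of each experiment, genes most like Fbxo32 among 6714 with a mean of at least 5 TPM included Stk11ip (r = 0.849), Klhl38 (0.846), Slc43a1 (0.839) and Arnt (0.824). Trim63 was the 20th, with r = 0.764. The genes most like Trim63 were Gabarapl1 (0.919), Sorbs3 (0.845), Mafk (0.844), Ranbp9 (0.838) and Oser1 (0.824), with Fbxo31 the 7th (0.818) and Fbxo32 the 40th. Stub1 was near the opposite end of the order for Fbxo32 (r = -0.647, the 6646th). These values describe the libraries and carry no test.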

How the data were processed

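TPM of 30 libraries was deposited by the authors as 1 table, with columns that sum to 1000000 each and the build mm10 per the submitters' processing notes. Trizol RNA was made into TruSeq stranded mRNA libraries for a NovaSeq instrument, and the labels describe the samples as biological replicates, per the labels' protocols. Aligner, counter, strand setting and annotation are unknown from the sources used here. TPM shares a fixed total, so a change in abundant mitochondrial transcripts shifts all other genes.

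Whole reads were recovered from the TPM steps for 23193 of 23193 genes above 0 (tolerance 0.05 read), 15820 with the exon length of GENCODE M21 and 7373 with a searched length, so reads of the searched genes, Fbxo32 and Stub1 among them, may be low by a whole factor. Totals were 27.4 to 33.2 M reads in old, 29.9 to 34.0 in young, 45.7 to 55.0 in dexamethasone, 48.3 to 54.2 in dexamethasone control, 42.8 to 46.5 in LLC, 43.1 to 47.1 in LLC control, 36.9 to 40.8 in Cyr61 siRNA and 35.9 to 40.8 in NT siRNA libraries. No molecular identifiers were used, so depth bears on counting error only. No 2 libraries of a group were as close as counting noise (lowest chi-square per degree of freedom 14.1).

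limma 3.58.1 (R 4.3.3, variance trend) tested log2(TPM + 1), with a pseudocount of 1, in each pair of groups for genes with at least 1 TPM in a number of libraries equal to the size of the smaller group. Calls needed a two-sided Benjamini-Hochberg adjusted p under 0.05 over all genes tested. Fold changes on this scale understate those of low genes. Interactions used the 22 libraries without siRNA. The ratio of Fbxo32 to Trim63 was tested by exact permutation, and correlations by 100000 permutations within groups. As an alternative, voom on recovered reads called 2 genes in the old, 1869 in the dexamethasone, 262 in the LLC and 0 in the siRNA comparison. Other alternatives were no filter or one of 5 TPM, a pseudocount of 0.1, rescaling that leaves out mitochondrially encoded genes, median-of-ratios scaling, all groups in 1 fit, a replicate block and leaving out each library. The pipeline was tested on simulated data. Promoters came from RefSeq (GRCm38.p6). scipy 1.17.1, pandas 2.3.3, numpy 2.4.6 and matplotlib 3.10.9 under Python 3.11.15 served for the rest.

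The members, gene lists, markers and tests were chosen with earlier results of these data known. All 10 members are named in every comparison. From each pathway list up to 3 called genes are named, those with the largest change relative to the median gene, and for Fbxo32 and Trim63 the 5 genes of highest r. A gene that this rule also took is not reported here.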

Additional observations from a re-analysis of the deposited data

Results flagged for a closer look

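In groups of 4 libraries, a library was singled out where its gap to the nearest other took up nearly the whole range of the group (Dixon's 95% value). This met 5 of 66 groups tested (60 for the members and 6 for the ratio of Fbxo32 to Trim63), where chance singles out about 1 in 20. Fbxo32 in dexamethasone 2 was 189.6 TPM, beside 91.2 to 93.3 TPM in the other dexamethasone libraries. Fbxo32 in NT siRNA 4 was 86.5 TPM, beside 265 to 275 TPM in the other NT siRNA libraries, and Fbxo21 in the same library was 3.36 TPM, beside 5.99 to 6.53 TPM. Traf6 in Cyr61 siRNA 1 was 3.91 TPM, beside 4.38 to 4.47 TPM, and Nedd4 in Cyr61 siRNA 3 was 109.0 TPM, beside 78.7 to 80.3 TPM.

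Stub1 differed between 2 stimuli by a test of the difference itself: its log2 response to LLC minus that to dexamethasone was -0.50 (adjusted p = 0.0335, limma interaction), and -0.08 after median-of-ratios scaling. In this contrast 26.5% of all genes were called lower and the median gene was -0.37, so such a call is not rare. It was made in 10 of 16 fits with 1 library left out.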

How the results depend on the processing

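The number of members called after dexamethasone was 5, and it was 3 with no filter (18.1% of all genes higher), 0 after median-of-ratios scaling (4.44%) or rescaling without mitochondrially encoded genes (5.56%), 1 by voom on recovered reads (13.3%), 0 by voom with scaled library sizes (4.27%), and 1 (Fbxo32, adjusted p = 0.028, limma) by scaling with a replicate block (7.12%). With 1 library left out it ranged from 0 to 7, and from 0 to 1 with scaling in addition. Members called under LLC ranged from 0 to 2 with 1 library left out (0 to 1 scaled), in old muscle from 0 to 1 (0 to 0 scaled) and with Cyr61 siRNAs from 0 to 0 on both scales. For LLC minus dexamethasone, 1 member was called (26.5% of all genes lower), 0 after either scaling and 3 with the replicate block (31.4% lower). When 1 library was left out, 0 to 5 were called (0 to 0 scaled). The 5 came without dexamethasone 1, where 54.0% of all genes were called lower. For dexamethasone minus old age, 0 were called and 1 (Trim32) after scaling, with 0 to 0 and, scaled, 0 to 1 when 1 library was left out. LLC minus old age gave 0 throughout. The log2 difference of the Fbxo32 to Trim63 ratio ranged from 0.18 to 0.51 (old), -0.27 to 0.25 (dexamethasone), 0.02 to 0.22 (LLC) and -0.21 to 0.06 (siRNA) with 1 library left out. Groups this small allow no exact p under 0.05, so these fits cannot decide whether the ratio differed.

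Against 0.34 as deposited, the change of Fbxo30 after dexamethasone was 0.018 (SE 0.106) after scaling with all libraries. The scaled change was -0.036 without dexamethasone 1, -0.046 without dexamethasone 3 and -0.011 without dexamethasone control 4. That of Fbxo40, 0.04 as deposited and -0.32 after scaling, was -0.39 and called (adjusted p = 0.0267, limma) after scaling without dexamethasone 2. The causes were not tested. Of 2058 alternative values for 70 member results, 56 kept a call, 1476 had no call and moved by at most 1 SE, 394 had no call and moved by more, 109 lost and 19 gained a call, and the 4 above changed sign where 1 of the fits made a call. Among those without a call, 402 changed sign.

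No comparison had a correlation over 0.1 for every same-numbered pair, so the numbers were not taken to pair the samples: the correlations of their deviations were 0.044 to 0.135 (old), 0.027 to 0.498 (dexamethasone), 0.041 to 0.374 (LLC) and 0.094 to 0.498 (siRNA). In no comparison did every library correlate best with its own number. With the replicate block 5 members were called after dexamethasone, beside 46.3% of all genes called higher. In the old, LLC and siRNA comparisons 0 were called, beside 1.45%, 4.64% and 0% of all genes. The ratio gave exact p-values of 0.5, 0.875, 0.75 and 0.75 (old, dexamethasone, LLC, siRNA) with the block. Pairs this few allow no exact p under 0.05, so the blocked ratio test cannot decide. Groups of 3 or 4 libraries limit what can be detected. Each gene had at least 202 reads per library, and at such numbers counting error adds to the spread of the lowest genes.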
